A study of Mus musculus with 9 samples.

Results

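Regions with a called UBTF peak in both malignant libraries and in no wild type or premalignant library were collected from peak lists of mouse pre-B cells. The wild type and premalignant lists are called the earlier lists. A peak missing from a list does not show that UBTF was absent there. A region was a peak of malignant replicate 1 on chromosomes 1 to 19 that overlapped by at least 1 bp a peak of malignant replicate 2 and no peak of the 2 wild type or 2 premalignant lists, and overlapping peaks were merged. The rule kept 3833 of 254459 peaks, 1.51% of the list (percent called), and these made 3412 regions. Merging the whole list gave 123120 regions. The members were thus chosen by the presence and absence of peaks in these 6 lists, so the number, the ranks and the gaps to excluded peaks are descriptions and carry no test.

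The cells were primary pre-B cells sorted from bone marrow of mice on the C57BL/6 background. The labels give the sort as B220 high, IgM low and IgD low for all stages, whereas the study's methods give that gate for wild type and premalignant cells and B220+, IgM- and IgD- for malignant cells, so the gate may have differed with stage. Wild type mice were aged 4 to 6 weeks, premalignant mice were Eµ-Myc heterozygotes of the same age, and malignant mice were Eµ-Myc heterozygotes taken at 10 to 20 weeks when lymphoma had arisen by itself. In Eµ-Myc mice the immunoglobulin heavy chain enhancer drives the Myc oncogene in the B lineage, so the malignant cells differed from wild type in genotype, age and disease. A lymphoma can be 1 clone, and each stage had 2 UBTF libraries and 1 input sample, of which the inputs were not analysed here. Study methods give wild type and premalignant mice as female and malignant mice as of both sexes.

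UBTF is a DNA-bending protein with several HMG boxes that coats active ribosomal RNA genes, keeps their chromatin open and helps RNA polymerase I to start transcription. It has also been found at other places in the genome, among them promoters of genes that RNA polymerase II reads. Peaks on the ribosomal RNA gene sequence itself were left out of the regions described here.

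There were 3 kinds of sequence that recurred at the summits of the best ranked, widest and most isolated regions, and examples of each are printed from the NCBIM37 (mm9) genome, plus strand. The first kind was a minisatellite, a tandem array of a unit of 7 to 60 bp. These are shown because the best region at Prkar1b, the 2 widest regions and a region far from any excluded peak all had their summit in such an array. Capitals mark every other copy of the unit, which is 53 bp at Prkar1b, 35 bp in Dip2a, 24 bp near Irx1 and 28 bp near 4930538E20Rik.
Prkar1b, chr5:139603188-139603294: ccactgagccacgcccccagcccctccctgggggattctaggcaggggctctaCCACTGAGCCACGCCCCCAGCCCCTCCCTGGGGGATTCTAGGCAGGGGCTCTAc
Dip2a, chr10:75775193-75775297: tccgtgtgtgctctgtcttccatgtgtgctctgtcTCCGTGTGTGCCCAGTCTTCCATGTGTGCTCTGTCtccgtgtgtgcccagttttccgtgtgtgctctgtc
Irx1, nearest, chr13:72083580-72083675: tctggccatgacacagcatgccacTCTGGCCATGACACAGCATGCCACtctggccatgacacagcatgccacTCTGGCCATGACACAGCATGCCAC
4930538E20Rik, nearest, chr11:24075143-24075254: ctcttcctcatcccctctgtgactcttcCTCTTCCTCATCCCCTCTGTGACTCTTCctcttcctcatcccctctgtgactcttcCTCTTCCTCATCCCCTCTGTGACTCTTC

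The second kind was a microsatellite, a tandem run, 40 bp or longer, of a unit of 1 to 6 bp, and it was the most frequent of the 3. The runs are in capitals and the flanks, where printed, in lower case. The run near Gm9025 goes on to the edge of the summit window, and the flanks of the Kif13a run hold further AC repeats. The 3 examples have a 6 bp unit between genes, a purine dinucleotide run between genes, and an AC run in an intron of Kif13a, a kinesin motor gene.
Gm9025, nearest, chr13:112685179-112685248: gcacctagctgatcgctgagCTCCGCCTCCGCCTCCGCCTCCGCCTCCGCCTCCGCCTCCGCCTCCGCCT
1700041M05Rik, nearest, chr4:124969783-124969865: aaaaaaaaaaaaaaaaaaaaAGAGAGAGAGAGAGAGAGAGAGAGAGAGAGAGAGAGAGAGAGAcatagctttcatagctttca
Kif13a intron, chr13:46945640-46945725: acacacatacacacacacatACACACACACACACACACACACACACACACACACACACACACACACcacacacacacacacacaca

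The third kind was unique, GC-rich DNA at gene starts or in exons, where capitals mark CpG dinucleotides. These are shown for the region of lowest rank sum, at Plch2, for the promoters of Trpv4 and Slc36a4, and for the coding exon of Dapk3.
Plch2, chr4:154417054-154417154: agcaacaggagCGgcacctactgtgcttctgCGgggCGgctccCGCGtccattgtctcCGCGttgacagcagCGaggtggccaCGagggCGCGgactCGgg
Trpv4, chr5:115108470-115108570: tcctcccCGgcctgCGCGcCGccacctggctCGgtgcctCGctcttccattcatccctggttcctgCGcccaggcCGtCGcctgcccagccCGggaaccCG
Slc36a4, chr9:15514118-15514218: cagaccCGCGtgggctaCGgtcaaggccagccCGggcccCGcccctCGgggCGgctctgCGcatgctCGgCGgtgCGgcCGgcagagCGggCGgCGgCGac
Dapk3, chr10:80655329-80655429: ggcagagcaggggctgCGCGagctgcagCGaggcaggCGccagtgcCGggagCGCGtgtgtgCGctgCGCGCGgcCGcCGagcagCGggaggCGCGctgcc
These stretches hold 12 CpG at Plch2, 11 at Trpv4, 16 at Slc36a4 and 16 at Dapk3, and in each summit window the median 24-mer occurred at 1 place in the genome.

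The lists from which the regions were drawn differed in size and in the form of their peaks. They ran from 78113 peaks in premalignant replicate 1 to 575674 in premalignant replicate 2, with 279068 and 563265 in malignant replicates 1 and 2. No peak was under 670 bp in premalignant replicate 2 or the malignant libraries, whereas the other 3 lists began at 240 to 260 bp. The lists also stopped at different false discovery rates, with a highest value of 0.0496 in premalignant replicate 2 and of 7.31e-05 to 0.00361 in the other 5. Wild type lies wholly on 1 side of that divide and malignant wholly on the other, so for this pair of stages peak form and stage cannot be told apart. The lists carry no read counts, and the depth of each library is unknown. The labels call the samples of a stage replicates, and the study's methods describe them as biological ones.

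Of the peaks of malignant replicate 1, 49.4% and 65.9% overlapped a peak of wild type replicates 1 and 2, 44.7% one of premalignant replicate 1, 84.6% one of premalignant replicate 2 and 85.7% one of malignant replicate 2. Premalignant replicate 2 thus held nearly as many of these peaks as the other malignant library did. A total of 51093 peaks lay in malignant replicate 2 and in none of the wild type lists or premalignant replicate 1, and 92.5% of those overlapped premalignant replicate 2. Without that library the same rule gave 33653 regions in place of 3412. Without wild type replicate 1, wild type replicate 2 or premalignant replicate 1 it gave 3952, 4931 and 3549.

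Peaks of malignant replicate 1 that none of the 4 earlier lists held numbered 16627, or 6.53%, and 3833 of them, 23.1% (95% exact binomial interval 22.4 to 23.7), were found again in malignant replicate 2. Positions of the same widths laid over all sequence free of the 4 lists would overlap that library in 9.77% of cases. This background was computed over every eligible position rather than from shuffled draws. The same 2 numbers for peaks of wild type replicate 1 found in no other stage were 50.2% (49.3 to 51.2) and 4.04%. Stage-exclusive peaks thus recurred in the second library less often in malignant than in wild type cells, while the list they were laid on was longer. Wild type replicate 1 had 4.9% of its peaks in both wild type lists only, giving 5284 regions, and premalignant replicate 1 had 0.614% in both premalignant lists only, giving 444 regions. All these intervals cover counting error only, since regions of 1 library are not replicates.

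The regions lay low in both malignant lists. Ranks were set by the peak caller's score, with rank 1 the best and tied scores sharing a rank. The median rank was 212478 of 279068 in malignant replicate 1, at 76.1% of the list, and 343835 of 563265 in malignant replicate 2, at 61.0%. The quartiles were 160208 and 246947 in replicate 1 and 215642 and 455739 in replicate 2. Other merged regions of malignant replicate 1 had a median rank of 128987. Regions of both wild type lists only also lay past the middle of their list, at a median of 60.2% of wild type replicate 1. Across the 3412 regions the ranks in the 2 libraries had a Spearman rho of 0.045, and both libraries were ranked after the same selection. Only 1 region was in the best 10% of both lists, and 259 (7.59%) were in the best 50% of both.

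The share of peaks that met the rule rose from 0.0741% (19 of 25638) in the best 10% of the malignant replicate 1 list to 3.32% (852 of 25647) in the last 10%. The share found again in malignant replicate 2 among peaks absent from the 4 earlier lists showed no such trend, from 29.7% (18.9 to 42.4) of 64 peaks in the best 10% to 23.2% (21.8 to 24.6) of 3675 in the last 10%. In every 10% step it lay above the 9.2% to 13.6% of eligible positions of the same widths. The rise went with the number of peaks absent from the earlier lists, 64 at the top and 3675 at the bottom.

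**Figure D1:**
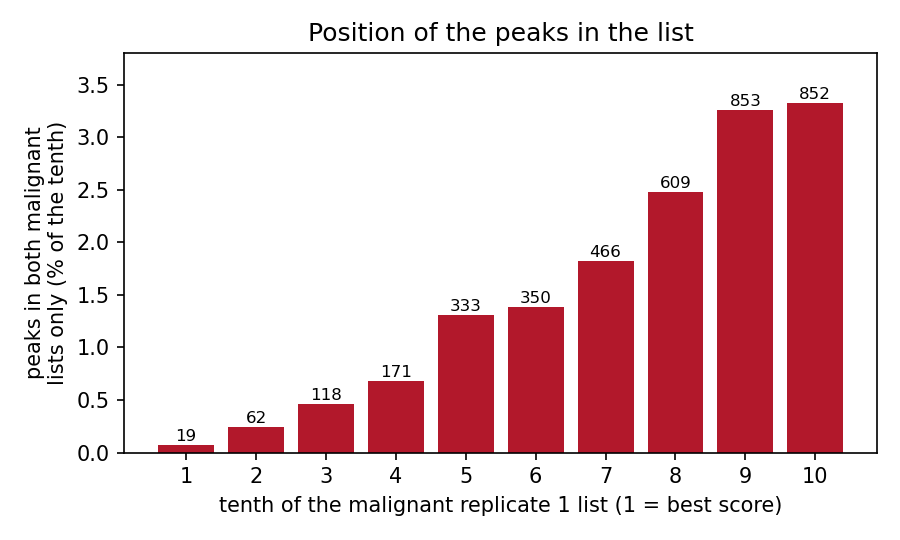
Percent of the peaks of malignant replicate 1 on chromosomes 1 to 19 that lay in both malignant lists and no other list (vertical axis), by steps of 10% of the list ordered by score (horizontal axis, 1 is best), with the number of peaks above each bar. The bars rise from 0.0741% to 3.32%.

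**Figure D2:**
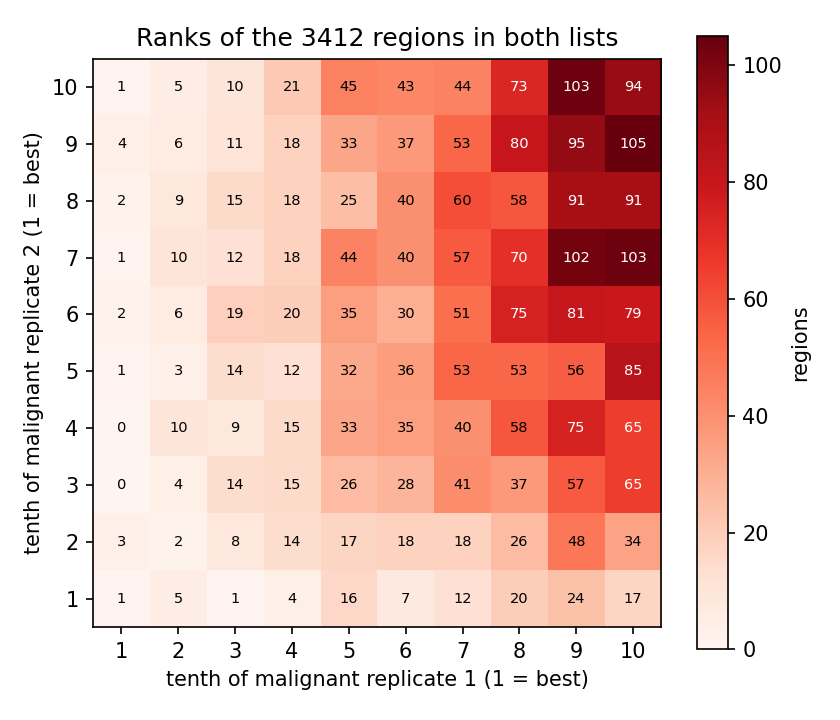
Number of regions by steps of 10% of rank in malignant replicate 1 (horizontal) and malignant replicate 2 (vertical), darker where there are more, 3412 in all. Counts pile up at the right, in the last steps of replicate 1, and the best 10% of both lists holds 1 region.

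Most regions were small and made of 1 peak. A share of 88.2% (3008 of 3412) held 1 peak, and 60.9% (59.2 to 62.5) had the narrowest width that the list has, 800 bp, against 28.3% of other regions. The summits of the 2 malignant libraries lay within 200 bp of each other in 55.2% (53.5 to 56.8), with a median distance of 163.5 bp. For every 10th other region present in both malignant lists that share was 46.8% (45.7 to 47.8) and the median 239 bp. Those other regions were also wider, with a median of 1779 bp over all other regions of the list, and so leave more room for summits to part.

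The nearest peak of an excluded list was a median of 1879.5 bp away, with quartiles of 663.75 and 4337.25 bp. It belonged to premalignant replicate 2, the longest list, in 58.7% of regions, to wild type replicate 2 in 25.7%, to wild type replicate 1 in 12% and to premalignant replicate 1 in 3.55%. Within 1000 bp of an excluded peak lay 1139 regions (33.4%), and 706 (20.7%) were over 5000 bp from any. The 3 regions just inside the rule touched an excluded peak with a gap of 0 bp, at chr7:20169553-20170871 in Clasrp, chr5:117784436-117785466 and chr1:164320964-164321972. The 3 peaks just outside it, at chr6:95294543-95295342, chr8:131007874-131008673 and chr6:113606372-113607171, overlapped one by 1, 1 and 2 bp.

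Promoters and coding exons held a larger share of the summits of malignant replicate 1 than of the genome free of the 4 earlier lists. Introns and other exons held a smaller share, and sequence between genes nearly the same. By the GENCODE M1 annotation, 334 summits (9.79%, interval 8.81 to 10.8) lay within 1000 bp of an annotated start. The other regions of malignant replicate 1 had 9.48% there, regions of both wild type lists only 6.17% (5.54 to 6.85), and the bases free of the 4 earlier lists 3.84%. Introns held 33.2% (31.7 to 34.8) of summits against 26.7% of other regions and 39.3% of free bases, and sequence between genes 53.5% (51.8 to 55.2) against 61.6% and 53.9%. Exons outside the coding parts held 0.821% of summits against 1.71% of free bases. The promoter share was 2.53% and the share between genes 72.3% without premalignant replicate 2. They were 4.71% and 70% when each list was limited to its best 78113 peaks. The promoter share thus depended on that library and on list length. The share of free bases was not computed for those settings, so a promoter share above it was not tested there. The median distance from a summit to the nearest annotated start was 18265 bp, compared with 28910 bp for the other regions of the list and 31614.5 bp for regions of both wild type lists only.

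Coding exons held 90 summits of malignant replicate 1, 2.64% (2.13 to 3.23), against 1.62% (1.55 to 1.7) of other regions and 1.24% of free bases. That share was 0.407% without premalignant replicate 2 and 0.541% in lists of equal length. It also rested on replicate 1. At the summits of replicate 2 in the same 3412 regions, 18 (0.528%, 0.313 to 0.832) lay in coding exons, and 11 of the 90 kept that class. Where both summits lay within 200 bp the share was 0.478% (9 of 1882), and where they lay farther apart it was 5.29% (81 of 1530). The promoter share was steadier, with 9.14% (8.2 to 10.2) at the summits of replicate 2, and 285 of 334 promoter regions (85.3%) kept that class.

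The 2 malignant libraries also differed in this respect before they were joined. All 14523 regions of malignant replicate 1 absent from the 4 earlier lists, whether or not in replicate 2, had 14.5% at promoters, 8.24% in coding exons and a median GC of 50.2% at summits. The corresponding 69510 regions of malignant replicate 2 had 3.64%, 0.157% and 44.8%. The regions held by both fell between these values in each case, at 9.79%, 2.64% and 47.3%.

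**Figure D3:**
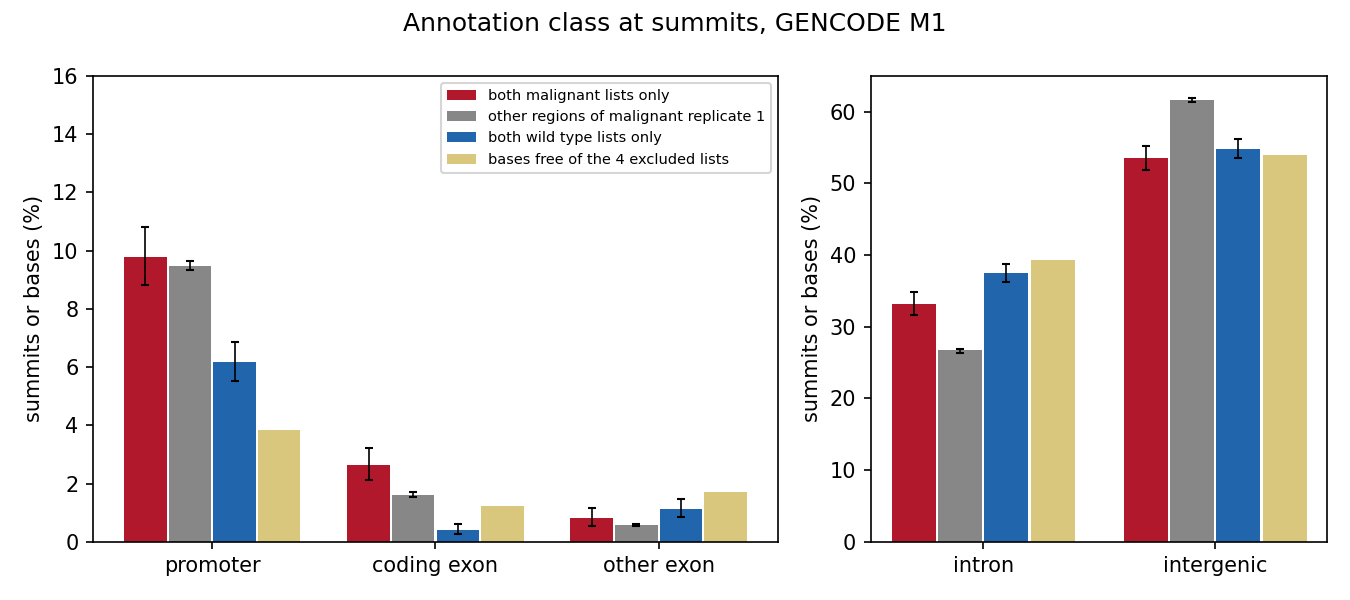
Percent of summits in each GENCODE M1 class for regions of both malignant lists only, other regions of malignant replicate 1, regions of both wild type lists only, and percent of bases free of the 4 wild type and premalignant lists. Error bars are 95% exact binomial intervals for counting error, and the promoter bars of both malignant-derived sets stand at 9.79% and 9.48% against 3.84% of free bases.

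The better ranked the regions were in malignant replicate 1, the more of them lay at promoters. The same split by rank in malignant replicate 2 was not made. Among the 75 regions in the best 20% of the malignant replicate 1 list, 29.3% (19.4 to 41) were at promoters and 33.3% (22.9 to 45.2) had a summit like a CpG island, that is a GC content of at least 60% with an observed to expected CpG ratio of at least 0.6 in the summit window, 100 bp on either side. Other regions in that 20% had 9.15% and 13.5%. Among the 1470 regions in the last 20% the shares were 6.53% and 3.54%, against 8.36% and 5.05% of other regions. The direction of the difference from the rest of the list thus changed between its best and its last 20%.

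Promoters of protein-coding genes held 280 regions, at 294 genes. The region of lowest rank sum, chr4:154416081-154418009, ranked 36988 in malignant replicate 1 and 16732 in replicate 2, and its summit was 159 bp from a start of Plch2, a phospholipase C gene. The next, chr5:139602268-139604204, ranked 27476 and 26965, and its summit in the 53 bp minisatellite was 526 bp from a start of Prkar1b, a regulatory subunit of protein kinase A. The 24-mers of that window occurred a median of 419 times in the genome, and the summit of replicate 2 lay 1237 bp away. Both regions lay in the best 20% of each malignant list.

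The other promoters among the 8 best ranked belonged to genes of varied function. Trpv4, a calcium-permeable cation channel, had ranks of 49596 and 30792, with the summit 90 bp from its start. Slc36a4, an amino acid transporter, had ranks of 95421 and 17056, with the summit 14 bp from its start. Their sequences are among those printed. Nudc, a gene of the dynein pathway, ranked 92395 and 31313, with the summit 188 bp from its start. The region at P4ha2, a collagen prolyl hydroxylase subunit, ranked 25348 and 111246, with the summit 13 bp from the start. That at Fkbp1a, which encodes the protein that binds FK506 and rapamycin, ranked 66038 and 74129. The eighth, 9530068E07Rik, ranked 22422 and 112339. The gap to the nearest excluded peak varied widely among the 8. It was smallest at Nudc, with 224 bp at P4ha2, 527 bp at 9530068E07Rik and 1145 bp at Prkar1b. It was 2456 bp at Slc36a4, 4969 bp at Trpv4, 8077 bp at Plch2 and 33526 bp at Fkbp1a. All but Prkar1b and Nudc had an island-like summit, with GC from 69.2% to 77.6% over those 6.

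The best regions outside promoters included an intron of Igsf9b, an adhesion protein of inhibitory synapses, with ranks of 37613 and 32263 and 24-mers found a median of 18227.5 times in the genome. Reads from so common a sequence cannot be placed by that sequence alone. An intron of Dnajc22, a J-domain protein gene, ranked 23843 and 68924, with summits 5 bp apart and a GC content of 75.6%. The remaining regions of the 10 with the lowest rank sums were chr13:112684295-112686034 with its 6 bp unit repeat, chr4:124968770-124970763 with its AG repeat, an intron of Gm8138, and chr10:85144605-85146428 between genes. Of those 10, 4 were at promoters, 3 in introns and 3 between genes.

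The 5 best ranked coding exon regions were in Zfp467, a zinc finger gene, Clasrp, an SR-related splicing gene, Dapk3, a death-associated kinase, Spock2, a proteoglycan gene, and Celsr3, an atypical cadherin of axon guidance. Their ranks in malignant replicate 1 ran from 72511 in Spock2 to 205746 in Dapk3, and in replicate 2 from 23229 in Dapk3 to 158260 in Spock2. Summits of the 2 libraries were 21 bp apart in Dapk3 and from 477 to 1309 bp apart in the other 4. The Dapk3 summit had 34 CpG in its window and a GC content of 76.6%.

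The widest region, of 3510 bp, lay in an intron of Dip2a on chr10:75772534-75776043 and ranked 133664 and 193559. The next, of 3191 bp at chr13:72081717-72084907, held 5 peaks and lay 17536 bp from a start of Irx1, a homeobox gene. It ranked 1849 in malignant replicate 1, the best of all regions, and 526576 of 563265 in replicate 2, among the last. The third, chr1:78212138-78215294, was 19898 bp from a start of Pax3, a paired box gene, and ranked 35953 and 206356 with an island-like summit of 77.1% GC.

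The 3 regions farthest from any excluded peak had the narrowest width, 800 bp. They were chr1:193637804-193638603 near Nek2, a centrosome kinase gene, at 49347 bp from an excluded peak, an intron of Kif13a at 36987 bp, and chr11:24074797-24075596 near 4930538E20Rik at 36393 bp. Their ranks were 245343 and 543458, 172363 and 533283, and 257800 and 200953. In replicate 2 the first 2 of these lay near the end of the list, while the region near 4930538E20Rik ranked better than the median region.

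Tandem repeats marked fewer of these summits than of the regions held by both wild type lists only. A microsatellite lay within 100 bp of the summit in 759 of 3411 regions, 22.3% (20.9 to 23.7). The share was 25.5% (25.3 to 25.8) for other regions of malignant replicate 1 and 79% (77.8 to 80.1) for both wild type lists only. In both premalignant lists only it was 52% (47.3 to 56.8), and at every 50000th position of the genome 2.25%. Among the regions found without premalignant replicate 2 the share was 5.44%, and among those from lists of equal length 1.31%, below that of the grid. A minisatellite lay at 85 regions, 2.49% (2 to 3.07), against 2.08% of other regions, 1.1% in both wild type lists only and 0.253% of grid positions. The most common minisatellite unit was 8 bp long, in 11 regions, and 4 regions had a unit of 53 bp.

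The frequency of each unit was also counted. Units are named with their reverse complement, so AC includes GT. An AC run was found at 8.38% (7.48 to 9.37) of summits and an AG run at 4.93% (4.22 to 5.71). The order was the same in both wild type lists only, with AC at 39.4% and AG at 35.5%, in both premalignant lists only, at 19.6% and 15.3%, and at grid positions, at 0.677% and 0.432%. Only in the other regions of malignant replicate 1, of the sets compared, was AG more frequent, at 13.9% against 6.82% for AC. Runs of AAAG were found at 1.85% (1.42 to 2.36) of summits here, at 0.574% of other regions, at 0.303% of regions of both wild type lists only and at 2.7% (1.4 to 4.67) of those of both premalignant lists only. No AT run was found at 3411 summits, which allows up to 0.108%.

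Repeats went with summits that coincided between libraries. Where the 2 malignant summits lay within 200 bp, 30.7% (28.6 to 32.9) were at a microsatellite, and where they lay farther apart 11.8% (10.3 to 13.6). Island-like summits went the other way, at 5.53% (4.54 to 6.66) and 8.76% (7.39 to 10.3), as did promoters, at 7.49% (6.34 to 8.78) and 12.6% (11 to 14.4). Whether repeats fix where the caller sets a summit was not tested.

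The summits were less repeated in the genome than those of other regions of the list. The median 24-mer in the summit window occurred once in the genome, on either strand, in 51.2% (49.5 to 52.9) of regions, against 30.6% (29.8 to 31.4) of every 10th other region. It was 77.3% for both wild type lists only and 81.3% for grid positions. Over 1000 copies were found for 10.2% (9.23 to 11.3) here, for 33.6% of other regions and for 2.65% of both wild type lists only. In the 1746 unique regions, 15.6% (13.9 to 17.4) were at promoters and 45.8% (43.5 to 48.2) between genes.

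GC content at summits had a median of 47.3%, with quartiles of 41.3% and 53.2%, compared with 45.8% for other regions, 45.3% for both wild type lists only and 41.8% for grid positions. A GC content of at least 60% was found at 14.4% (13.2 to 15.6), and island-like sequence at 6.98% (6.14 to 7.88) against 8.75% (8.59 to 8.91) of other regions and 0.453% of grid positions. By class, the median GC was 63.9% at promoters, 61.2% in coding exons, 46.8% in introns and 45.3% between genes. Island-like sequence was found at 166 of 334 promoter summits, 49.7%, against 63.2% of promoter summits in other regions. Introns and sequence between genes held 22 and 28 of the 238 island-like summits.

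**Figure D4:**
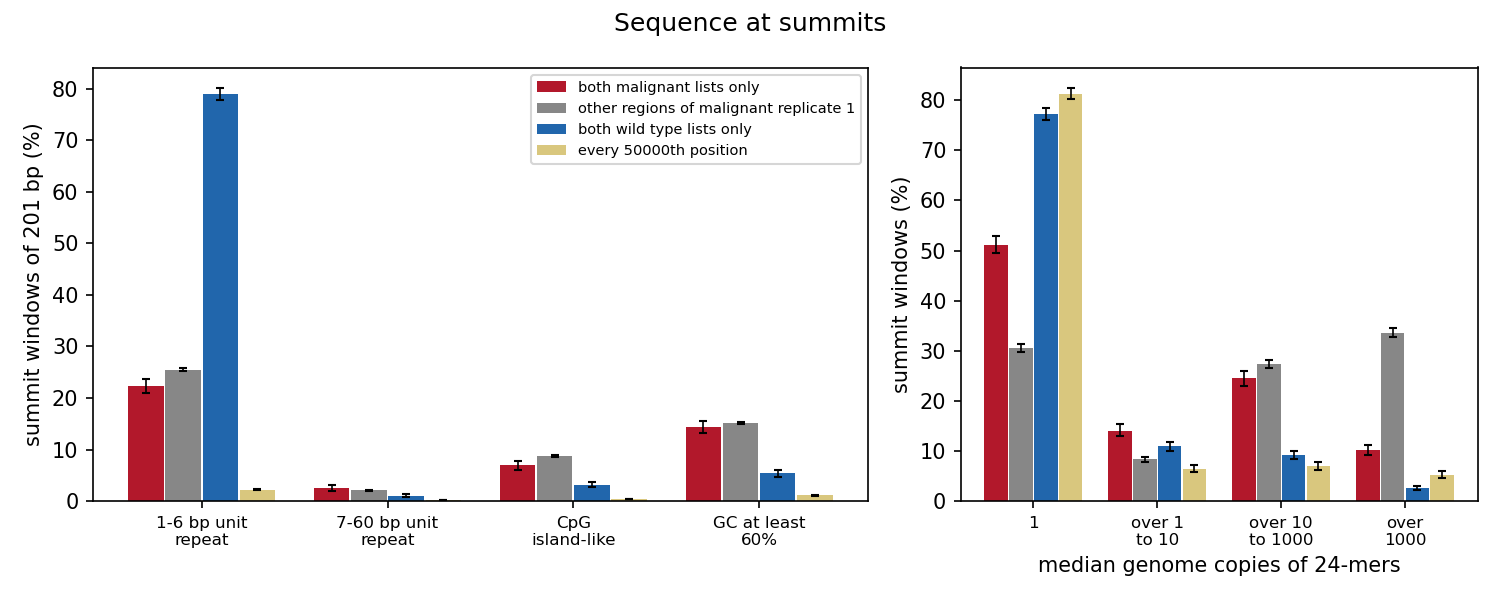
Left, percent of summit windows (100 bp on either side) with a tandem repeat of a 1 to 6 bp or 7 to 60 bp unit, with CpG island-like sequence or with a GC content of at least 60%, for regions of both malignant lists only, other regions of malignant replicate 1, both wild type lists only, and every 50000th genome position. Right, percent of windows by the median number of genome copies of their 24-mers (every 10th window of the other regions and of the grid), with error bars of 95% exact binomial intervals; repeats of short units stand at 22.3% in regions of both malignant lists only and at 79% in those of both wild type lists only.

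The letters CACGTG, the same on both strands and known as the E-box that MYC with MAX prefers, were present in 78 of 3411 summit windows, 2.29% (1.81 to 2.85). The share was 1.89% of other regions and 2.02% of grid positions, so the interval for these regions holds both values. At promoter summits it was 6.29% (21 of 334), against 4.32% of promoter summits in other regions. The telomere unit TTAGGG in 2 joined copies, on either strand, was found in 0 of 3411 windows, which allows up to 0.108%, and in 0.144% of other regions. A match is a string of letters and not a measured binding site.

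Chromosomes differed in how many of these regions they carried. The 19 autosomes had 1.43 regions per sequenced megabase, from 0.731 on chromosome 18, 0.732 on chromosome 12 and 0.821 on chromosome 16 to 1.73 on chromosome 7, 1.79 on chromosome 6 and 1.94 on chromosome 5. Other regions of malignant replicate 1 ranged more narrowly, from 37.08 per megabase on chromosome 19 to 57.66 on chromosome 7, and chromosomes 12, 16 and 18 had 43.39, 50.34 and 50 of them. The share of sequence that malignant replicate 2 covered was lowest on chromosome 18, at 14.7%, with 17% on chromosome 11, 17.2% on chromosome 12, 18.5% on chromosome 16 and 20.4% on chromosome 5. Across the 19 chromosomes the density had a Spearman rho of 0.49 with GC content, 0.62 with other regions of the list and -0.47 with regions of both wild type lists only. All these densities share the same lists and sequence, and the part of the coverage in replicate 2 in the differences between chromosomes was not tested.

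**Figure D5:**
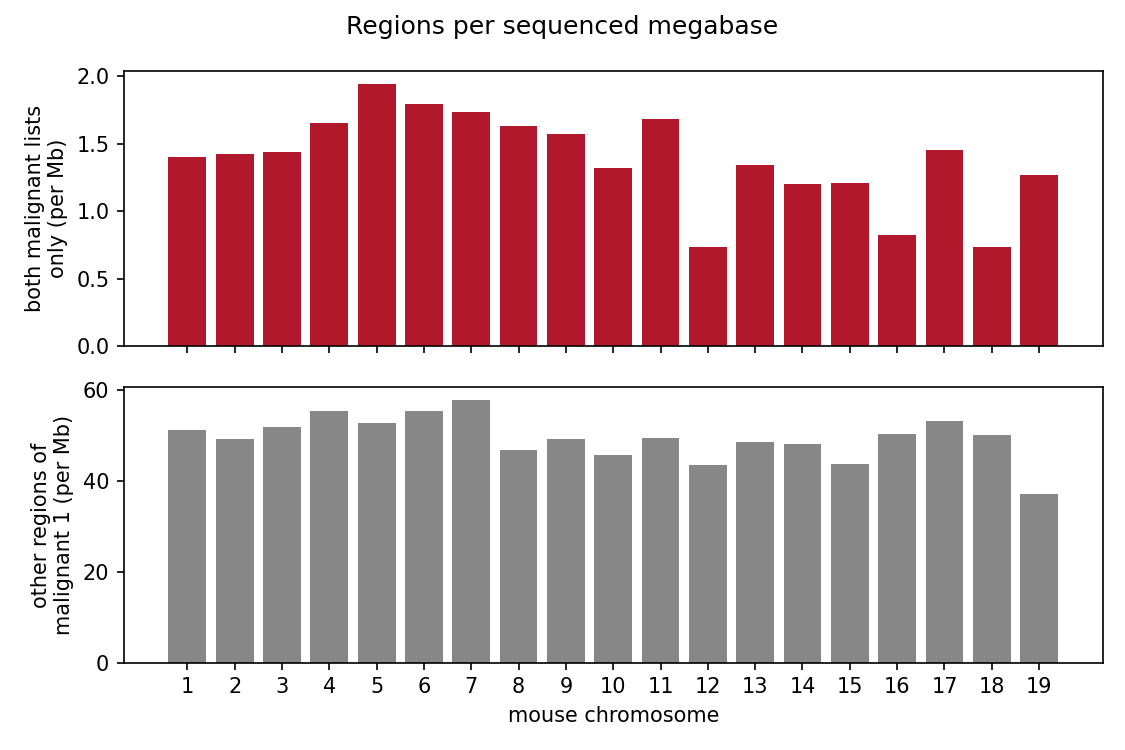
Regions per sequenced megabase on chromosomes 1 to 19 for both malignant lists only (top) and for other regions of malignant replicate 1 (bottom), on separate vertical scales. Chromosomes 12, 16 and 18 are lowest in the top panel, at 0.732, 0.821 and 0.731 per megabase.

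Density was also counted within chromosomes. Of 2482 windows of 1 Mb, 785 held no region and 90 held 5 or more. The densest, chr10:80000001-81000000, held 11 regions and 60 protein-coding genes, among them Dot1l, a histone methyltransferase gene, Gadd45b, a stress response gene, and Oaz1, the antizyme of polyamine synthesis. The windows chr4:42000001-43000000, with 34 protein-coding genes, chr6:125000001-126000000, with 20, and chr11:95000001-96000000, with 23, each held 9. The same windows held 135, 85, 63 and 45 other regions of malignant replicate 1.

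Summits lay inside 1277 protein-coding genes, of which 142 held 2 or more and 26 held 3 or more. Gm20388 held the most, with 21 over the 4435 kb that GENCODE M1 gives it. Fgfr2, a fibroblast growth factor receptor, held 8 over an annotated 3009 kb. Cntnap2, a neuronal adhesion gene, held 5 over 2241 kb, and Sdk1, another adhesion gene, and Caln1, a calcium-binding protein gene, held 4 each over 974.1 and 471.2 kb. Rbms3, an RNA-binding protein gene, also held 4, over 1057 kb. These annotated spans are long, and the best ranks within them in malignant replicate 1 lay between 47151 in Sdk1 and 189453 in Rbms3.

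The regions were also counted at short lists of genes, among them genes tied to UBTF, MYC or the B lineage. A region lay in the gene, or within 5000 bp of its start, for 1500 of 21281 protein-coding genes (7.05%). It did for 0 of 20 genes of the RNA polymerase I machinery, 0 of 18 of the MYC network, 2 of 21 of p53 and apoptosis, 1 of 32 of B cell identity and signalling, 1 of 28 of ribosome assembly and 0 of 19 markers of other blood cells. Other regions of malignant replicate 1 lay at 18 of the 20 RNA polymerase I genes, at all 18 of the MYC network and at 72.4% of protein-coding genes, and a gene with a peak in an earlier list there can still carry a malignant-only region. Nothing particular to a list can be read from counts this small beside the 7.05% of all protein-coding genes.

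The 4 list genes with a region were Apaf1, Bak1, Erg and Rcl1. Apaf1, the scaffold of the apoptosome, had a region at chr10:90467981-90468780 by an annotated start inside the gene, with ranks of 169383 and 209652. Bak1, a BCL2 family member that permeabilises mitochondria, had one at chr17:27159393-27160665, which also lay in Ggnbp1, with ranks of 117682 and 497012. Erg, an ETS family transcription factor, had one in an intron at chr16:95743165-95744380, with ranks of 182900 and 403704. Rcl1, a factor of small ribosomal subunit assembly, had one in an intron at chr19:29186957-29187756, with ranks of 245343 and 423232. None of the 4 reached the best 40% of the malignant replicate 1 list.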

How the data were processed

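UBTF was measured by ChIP-seq in 6 libraries, and each had 1 deposited peak list. Per the study's methods and the submitters' processing notes, which name CASAVA 1.8.2, Bowtie and Picard 1.110, the authors mapped reads to mm9 joined to an rDNA repeat, removed duplicates and called peaks per library with SPP, before any filter on reproducibility. The deposited signal value is the caller's score, in units that are not scaled between libraries, and served only to rank peaks. The deposited q-value column holds a linear false discovery rate, and the deposited p-value column holds a placeholder and was not used.

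Positions were read with NCBIM37 sequence and GENCODE M1 genes, both mm9. Overlaps, classes and sequence features were computed in Python 3.11.15 with numpy 2.4.6, pandas 2.3.3, scipy 1.17.1, numba 0.67.0, pysam 0.24.0 and samtools 1.23.1, plotted with matplotlib 3.10.9, and the interval steps were tested on simulated data. Class and sequence were read at the summit of the best peak of malignant replicate 1, in windows of 100 bp on either side. Minisatellites were stretches of 100 bp that matched themselves by at least 90% after a shift of 7 to 60 bp. Intervals are 95% exact binomial ones. No test was run, and shares of bases and of positions stand in for shuffled positions.

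Named regions were the 10 of lowest rank sum in both malignant lists, the 8 best at protein-coding promoters, the 5 best in coding exons, those at listed genes, the 3 widest, the 3 farthest from excluded peaks, the genes and windows with most regions, and 3 on either side of the rule. The regions and gene lists were chosen with earlier results of these data known. Alternatives were another base list, overlap, distance, false discovery rate, list length, peak extent, promoter width, gene set and window, and leaving out each library.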

Additional observations from a re-analysis of the deposited data

Results flagged for a closer look

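Chromosomes X and Y were outside the rule and were counted apart, which was chosen after seeing the data. On chromosome X, 301 regions were held by both malignant lists only, from 344 of 24208 peaks of malignant replicate 1. Both wild type lists only held 169, from 172 of 6354 peaks of wild type replicate 1. On chromosome Y both malignant lists only held 1 region, from 1 of 354 peaks, and both wild type lists only held 4, from 4 of 176. On chromosomes 1 to 19 the peaks behind such regions were 3833 of 254459 (1.51%) for malignant and 5364 of 109563 (4.9%) for wild type. The malignant mice were of both sexes and the wild type mice female per the study's methods, and no input was analysed here as a control.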

How the results depend on the processing

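Of the values recomputed under other settings, 46 kept within 1.5 times the count or within the 95% interval of the share or median, and 55 did not. The number of regions was 1295 when each list was limited to its best 78113 peaks, and 11 of the 3412 regions overlapped those. In those lists of equal length promoters held 4.71%, sequence between genes 70%, microsatellites 1.31% and the median GC was 42.8%. Leaving out each library in turn gave 3549 to 69510 regions, promoter shares of 2.53% to 14.5%, shares between genes of 42.2% to 72.3%, microsatellite shares of 5.44% to 28.7% and a median GC of 41.8% to 50.2%; the extremes came without premalignant replicate 2 or a malignant library, except the 28.7% without wild type replicate 2 and the 3549 without premalignant replicate 1. The promoter share was 8.76% with regions taken from malignant replicate 2, 8.55% with an overlap of 50% of the shorter peak, 8.63% and 7.44% at an FDR of at most 0.01 and 0.001, 13.3% and 7.42% with promoters of 2000 and 500 bp, 8.21% with protein-coding genes only and 11.6% by any overlap. Between genes it was 56.3% and 58.4% at those FDRs, 51.8% with no excluded peak within 1000 bp and 56.7% with protein-coding genes only. Microsatellites were at 24.9% from replicate 2, 25% at 50% overlap, 24.1% beyond 1000 bp, 19.1% at an FDR of 0.001, and 17.8% and 27.8% within 50 and 250 bp of the summit. The median GC was 46.3% from replicate 2 and at an FDR of 0.001, and 47.5% and 45.5% in those windows. The cause was not tested. With chromosomes X and Y, an alternative chosen after seeing the data, there were 3714 regions. No paired analysis was possible because no result comes from a test. Without read counts, depth limits every list to an unknown degree.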

Other observations

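The 15 regions of best rank in malignant replicate 1 were also listed, a choice made after seeing the data. Their ranks there were 1849 to 27476, and 26965 to 526576 in malignant replicate 2. A share of 7 of the 15 lay at promoters of protein-coding genes, which included Atad3a, a mitochondrial membrane ATPase, with ranks of 16253 and 499198, Spred3, a Sprouty-related gene that shares this start with Ggn, with 16515 and 428958, Grcc10 with 22835 and 480262, and Mansc1 with 24837 and 365194. In these 4 the region ranked in the best 10% of replicate 1 and below the middle of replicate 2.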
